A study of Homo sapiens with 12 samples.

Results

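The genes described here encode the aminoacyl-tRNA synthetases, the enzymes that join each amino acid to its matching transfer RNA. The members were chosen by symbol: 37 synthetase genes of the 23153 genes shared by the deposited tables, of which 20 encode cytosolic enzymes, 16 encode mitochondrial enzymes (symbols ending in ARS2) and 1 is TARSL2. All 37 had a mean of at least 1 FPKM (fragments scaled to transcript length and to the size of the library), the level set for testing, as did 11075 genes in all.

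Charged transfer RNAs supply the ribosome with amino acids, and the cell keeps separate synthetase genes for translation in the cytosol and for the few proteins translated inside mitochondria. GARS and KARS are exceptions, each making both forms of its enzyme from a single gene. Several cytosolic enzymes are bound together with the scaffold proteins AIMP1, AIMP2 and EEF1E1 in the multisynthetase complex. Cytosolic synthetase genes are known as targets of ATF4, the transcription factor of the integrated stress response, which reads a C/EBP-ATF composite element (also called the amino acid response element) in many of its target genes.

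Polyadenylated RNA was sequenced from K562, an established human chronic myelogenous leukemia cell line, to see how cells answer palmitate, a saturated fatty acid given as a complex with albumin. Wild-type cells were given palmitoleate or palmitate or left untreated (experiment 1). They were given both fatty acids, given palmitate or left untreated, beside GPAT4 knockout (GPAT4ko) cells given palmitate (experiment 2). RNF213 knockdown (RNF213kd) cells and wild-type cells were each given palmitate or left untreated (experiment 3). GPAT4, listed as AGPAT6, is a glycerol-3-phosphate acyltransferase of glycerolipid synthesis, and RNF213 is a ubiquitin ligase. The palmitate dose was 0.2 mM, for 20 h by the sample labels and 16 h by the legends in the tables of experiments 2 and 3. The dose of palmitoleate given alone is not stated in the sources used here. How the knockout and the knockdown were made, and whether either line is 1 clone, is not stated there either. Each library held RNA of pooled biological triplicates, so wild-type palmitate and wild-type untreated cells had 3 libraries each, 1 per experiment, and every other condition had 1. A labelled untreated GPAT4ko library was not analysed here.

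The 11 libraries summed to 612355 to 821188 FPKM, with 10495 to 11108 genes at 1 FPKM or more. The read depth is unknown, so precision rests on the spread between experiments. AGPAT6 stood at 8.77 FPKM in the GPAT4ko palmitate library, against 20.0 FPKM in wild-type palmitate cells of the same experiment. RNF213 stood at 1.54 and 1.39 FPKM in the RNF213kd palmitate and untreated libraries, against 3.08 and 1.96 FPKM in the matching wild-type libraries. All 8 markers of K562 reached 1 FPKM. They summed to 4909 to 5535 FPKM with palmitate, against 7633 to 16456 FPKM untreated, and 3 of them, HBG2, GATA1 and LMO2, were called lower with palmitate. B-cell and endothelial markers stayed under 1 FPKM in every library (3 of 3 and 4 of 4), with MS4A1, CDH5 and KDR at 0. Of the epithelial markers, 3 of 4 reached 1 FPKM, and their sum was 332 to 1242 FPKM with palmitate, against 289 to 409 FPKM untreated. Within that sum KRT8 and KRT18 had mean log2 ratios of 0.98 and 0.95 and EPCAM of -0.79, none of them called. Under 1 FPKM in every library were 2 of 4 T-cell, 2 of 3 monocyte and 3 of 4 fibroblast markers. T-cell markers, mostly CD3D, summed to 22.6 to 34.9 FPKM with palmitate, against 13.3 to 31.9 FPKM untreated. Monocyte markers, mostly LYZ, summed to 19.9 to 41.8 against 27.1 to 57.0 FPKM, and fibroblast markers to 1.53 to 3.04 against 0.203 to 2.33 FPKM. The part of these shifts in the synthetase results was not tested. In pooled RNA, a change in the make-up of the culture and a change of RNA per cell cannot be told apart.

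In untreated wild-type cells the cytosolic genes were the more abundant on this per-length scale. They ranged from 21.8 ± 4.27 FPKM for CARS (cysteine) to 172 ± 41.8 FPKM for KARS (lysine) (SD, n = 3). The mitochondrial genes ranged from 4.82 ± 0.610 FPKM for PARS2 (proline) to 79.6 ± 6.13 FPKM for IARS2 (isoleucine) (SD, n = 3). IARS2 was the 1 mitochondrial gene among the 20 most abundant members. Most neighbours in the order of levels lay within each other's spread, for example IARS at 107 ± 16.5 FPKM and EPRS at 105 ± 1.05 FPKM (SD, n = 3).

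To read these genes against the element named above, promoters of 250 bases before to 50 bases after the gene start were taken from RefSeq (GRCh38.p14), where 30 of the 37 members had an entry. The letters TGATGNAA, searched on both strands, occurred in 3.67% of all 27305 promoters. They occurred in 6 of 16 cytosolic and 1 of 14 mitochondrial promoters. The windows with a match are shown because 3 of them belong to genes called higher with palmitate (AARS, CARS and MARS) and 4 do not. Each runs 5′ to 3′ on the strand of the gene, with the match in capitals.
AARS: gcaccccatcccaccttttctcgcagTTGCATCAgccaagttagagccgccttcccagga
CARS: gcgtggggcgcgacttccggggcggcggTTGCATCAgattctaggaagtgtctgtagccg
MARS: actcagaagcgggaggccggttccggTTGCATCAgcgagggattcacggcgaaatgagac
IARS: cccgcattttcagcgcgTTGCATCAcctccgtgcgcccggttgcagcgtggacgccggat
NARS: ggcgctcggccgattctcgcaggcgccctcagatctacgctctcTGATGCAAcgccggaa
TARS: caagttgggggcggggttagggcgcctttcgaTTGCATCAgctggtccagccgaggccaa
YARS2: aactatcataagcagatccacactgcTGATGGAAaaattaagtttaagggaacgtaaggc
These windows lie at chr16:70289660-70289719 (AARS, minus strand), chr11:3057394-3057453 (CARS, minus), chr12:57488038-57488097 (MARS, plus), chr9:92293668-92293727 (IARS, minus), chr18:57621807-57621866 (NARS, minus), chr5:33440935-33440994 (TARS, plus) and chr12:32756061-32756120 (YARS2, minus). All 6 cytosolic matches read TGATGCAA or its reverse complement TTGCATCA, the form with C at the free position. That form occurred in 0.923% of all promoters and in 0 of the 14 mitochondrial ones, and was singled out after the matches were seen. The match began 187 bases before the annotated start in AARS, and within 14 bases of it in CARS, IARS, MARS, NARS and TARS. WARS, GARS and SARS, whose rises are given below, held no match in this window, and YARS had no entry. A match is a description of letters and not of binding.

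Palmitate raised 7 of the 20 cytosolic genes and lowered 0. It raised 0 of the 16 mitochondrial genes and lowered 1 (limma on the 3 within-experiment log2(FPKM + 1) ratios, Benjamini-Hochberg adjusted p under 0.05 over 11075 genes). Among all tested genes 6.59% were called higher and 3.84% lower. At an unadjusted p under 0.05, 10 of the 20 cytosolic and 5 of the 16 mitochondrial genes passed, beside 32.6% of all tested genes. The raised genes were WARS, GARS, CARS, SARS, MARS, AARS and YARS, which charge tryptophan, glycine, cysteine, serine, methionine, alanine and tyrosine. The lowered gene was MARS2, the mitochondrial methionine enzyme. The mean rise over the 3 experiments ran from 2.01-fold for YARS to 4.27-fold for WARS. In experiments 1, 2 and 3, 3, 7 and 6 of these 7 genes reached 2-fold. The median log2 ratio was 0.29 over the cytosolic genes and -0.47 over the mitochondrial genes, beside -0.06 over all tested genes. Without experiment 1 or without experiment 3 no gene of the whole table was called (smallest adjusted p 0.0521 and 0.131, with an unadjusted p under 0.05 in 4474 and 2330 genes). With experiment 2 left out the called members were WARS, GARS, CARS and SARS, among 599 genes called higher and 291 lower in the whole table (smallest adjusted p 2.78e-138). So small a value from 2 ratios a gene rests on the spread pooled over genes and is no measure of strength. Without the filter on low values 0 members were called, and without the experiment as a block 2 cytosolic members, WARS and SARS, and still MARS2.

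**Figure D1:**
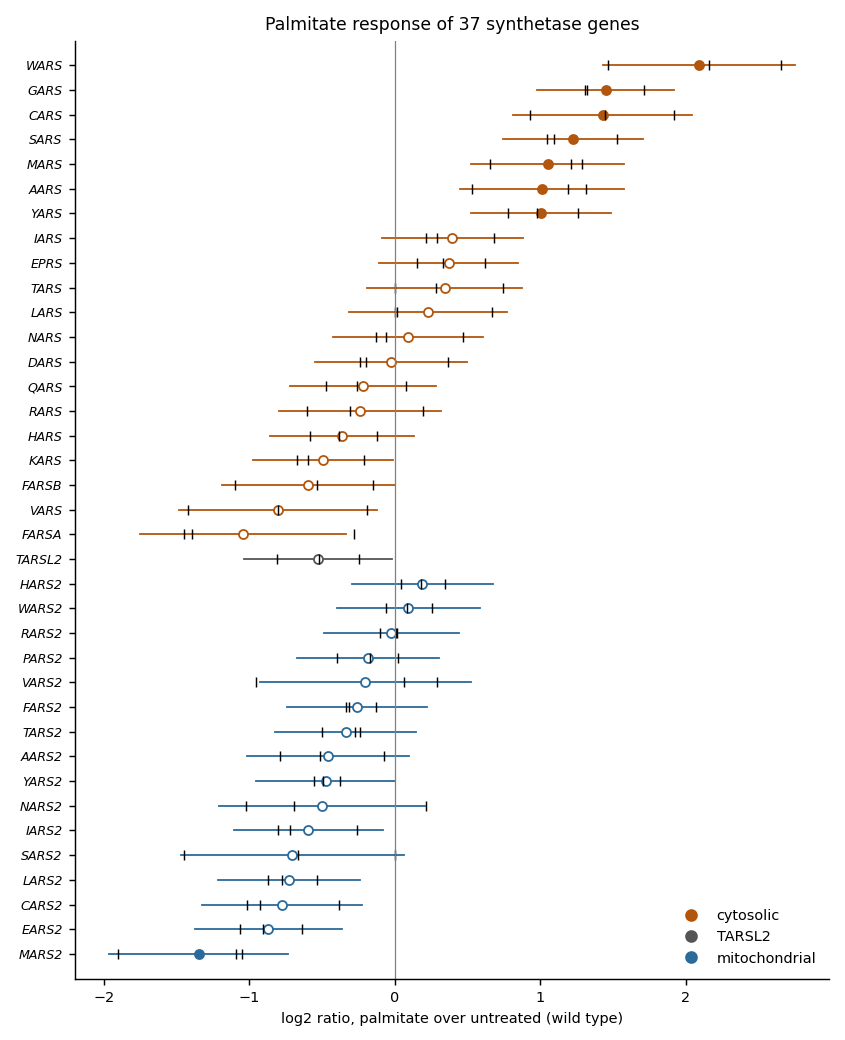
Log2 ratio of palmitate to untreated wild-type cells (horizontal axis) for each of the 37 genes. Circles are the mean of 3 experiments, filled where called, lines are 95% limma intervals, and ticks are the single experiments. The 7 filled cytosolic genes lie between 1.00 and 2.09, and the next cytosolic gene, IARS, lies at 0.39.

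WARS showed the largest change of the 37. The gene spans chr14:100800127-100843142 on the minus strand of GRCh37. It stood at 275, 440 and 239 FPKM with palmitate in experiments 1, 2 and 3, against 98.9, 69.1 and 52.7 FPKM untreated. Every palmitate library was above every untreated one. The log2 ratio was 2.09 ± 0.27 (SE; adjusted p = 0.0189). The authors' deposited table, which compares single libraries with Cuffdiff, gives WARS a q-value of 0.0175 in experiment 2, the 1 member under 0.05 there. The 250 bases before its start are shown because the gene with the largest change held neither the C/EBP-ATF letters nor the endoplasmic reticulum stress elements searched, TGACGTGG (in 0.795% of all promoters) and CCAAT followed by CCACG after 9 free bases (in 0.0806%). They lie at chr14:100376328-100376577 (minus strand, GRCh38.p14), and the capitals mark its CCAAT boxes, letters found in 35.7% of all promoters.
WARS promoter: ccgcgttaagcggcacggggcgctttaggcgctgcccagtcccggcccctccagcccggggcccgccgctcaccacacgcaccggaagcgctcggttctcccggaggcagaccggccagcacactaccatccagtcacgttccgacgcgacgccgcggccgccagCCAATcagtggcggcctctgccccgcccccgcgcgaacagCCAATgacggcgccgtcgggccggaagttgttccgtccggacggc

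GARS, the glycyl enzyme of both compartments (chr7:30620149-30673649, plus strand, GRCh37), stood at 263, 390 and 206 FPKM with palmitate, against 104, 118 and 82.3 FPKM untreated. The groups did not overlap. Its log2 ratio was 1.45 ± 0.19 (SE; adjusted p = 0.0196), and its 3 ratios of 1.32, 1.71 and 1.31 lay close together. SARS, the seryl enzyme (chr1:109756540-109780804, plus strand), stood at 300, 406 and 256 FPKM with palmitate, against 140, 140 and 123 FPKM untreated. SARS was higher in every palmitate library than in any untreated one, at a log2 ratio of 1.23 ± 0.20 (SE; adjusted p = 0.0279). CARS, the cysteinyl enzyme and in untreated cells the least abundant cytosolic member (chr11:3022152-3078843, minus strand), stood at 47.8, 92.9 and 47.6 FPKM with palmitate, against 24.7, 23.8 and 16.9 FPKM untreated. CARS showed no overlap either, at 1.43 ± 0.25 (SE; adjusted p = 0.0309).

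MARS, the methionyl enzyme of the cytosol, was the 1 called gene among the 8 members of the multisynthetase complex. It stood at 123, 199 and 117 FPKM with palmitate, against 77.6, 80.8 and 49.8 FPKM untreated. The log2 ratio was 1.05 ± 0.21 (SE; adjusted p = 0.0409), with no overlap between the groups. MARS (chr12:57869228-57911352, plus strand, GRCh37) overlaps DDIT3, the stress factor CHOP, on the other strand, with 355 shared exon bases of the 1307 exon bases of DDIT3, and the authors' table lists both under a single locus. The libraries were stranded, but whether strand was used in counting is not stated, so a share of DDIT3 reads in the MARS value cannot be told apart. DDIT3 stood at 384, 800 and 426 FPKM with palmitate, against 72.1, 66.8 and 46.2 FPKM untreated. In the 1 library given both fatty acids MARS was at 151 FPKM and DDIT3 at 128 FPKM, against 199 and 800 FPKM with palmitate alone. The share of DDIT3 reads in the MARS value was not tested.

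AARS, the alanyl enzyme, stood at 102, 188 and 105 FPKM with palmitate, against 70.5, 74.7 and 45.3 FPKM untreated. Its log2 ratio of 1.01 ± 0.23 (SE) was the call nearest to the threshold among the members (adjusted p = 0.0482). YARS, the tyrosyl enzyme, stood at 150, 218 and 147 FPKM with palmitate, against 87.1, 90.4 and 74.2 FPKM untreated, a log2 ratio of 1.00 ± 0.20 (SE; adjusted p = 0.0380). Neither gene overlapped between the groups. YARS shares 396 exon bases with S100PBP on the other strand and a locus with it in the authors' table, so its value may hold reads of both.

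**Figure D2:**
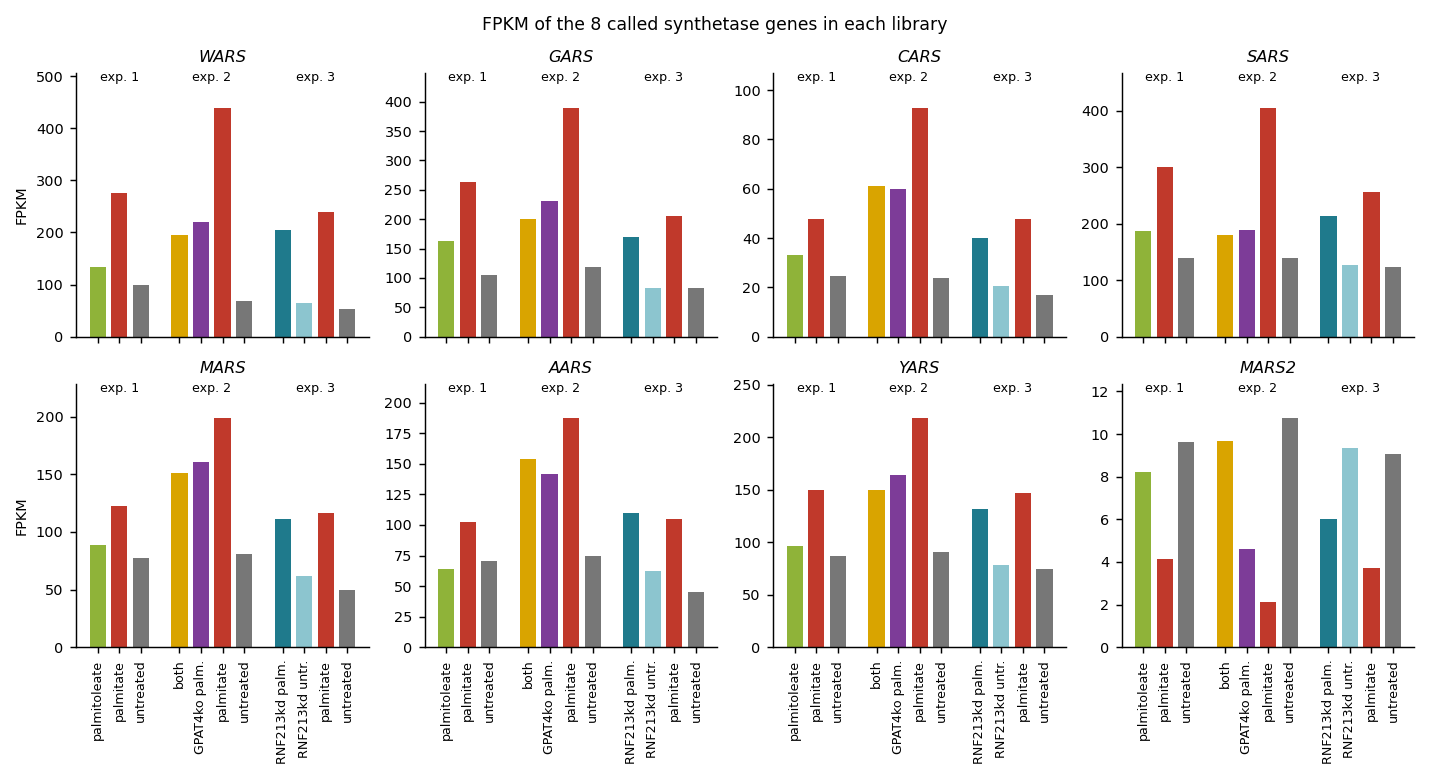
FPKM of the 8 called genes in each of the 11 libraries, with experiments 1, 2 and 3 side by side in each panel. Each bar is 1 library. In the 7 cytosolic genes each red bar (palmitate, wild type) stands above the grey bar (untreated) of its experiment, as for WARS at 440 against 69.1 FPKM in experiment 2, and for MARS2 the order is turned round, at 2.14 against 10.7 FPKM.

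The other 13 cytosolic genes were not called and moved in both directions. EPRS, the enzyme for glutamate and proline, was the 1 uncalled cytosolic gene whose groups did not overlap, at 164, 133 and 116 FPKM with palmitate, against 106, 106 and 104 FPKM untreated. Its log2 ratio was 0.37 (adjusted p = 0.246). IARS, TARS, LARS and NARS had log2 ratios of 0.39, 0.34, 0.23 and 0.09, and DARS, QARS, RARS and HARS had -0.02, -0.22, -0.24 and -0.36. KARS lay at -0.50, FARSB at -0.59, VARS at -0.80 and FARSA at -1.04.

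FARSA and FARSB encode the subunits of the cytosolic phenylalanyl enzyme. FARSA stood at 23.8, 54.5 and 42.4 FPKM with palmitate, against 66.5, 145 and 51.7 FPKM untreated. Each palmitate library was below the untreated library of its experiment, but the groups overlapped, and the log2 ratio of -1.04 ± 0.29 (SE) missed the threshold (adjusted p = 0.0710). It passed where small RNA genes were left out of the fit (adjusted p = 0.0171) and where a trend with GC content was removed (log2 ratio -0.78, adjusted p = 0.0465). FARSB stood at 95.3, 48.4 and 57.4 FPKM with palmitate, against 106, 105 and 83.7 FPKM untreated, with a log2 ratio of -0.59 and an adjusted p of 0.154. The authors' table lists VARS, the valyl enzyme, on an alternative haplotype of the major histocompatibility region, where near-identical copies can split reads, so its value is uncertain.

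The calls were counted by structural group, without a test of differences, beside 6.59% of all tested genes called higher. Inside the multisynthetase complex 1 of 8 genes was called higher, at a median log2 ratio of 0.10, and outside it 6 of 12, at a median of 0.67. By catalytic fold, 4 of 9 class I genes and 3 of 10 class II genes were called higher, with EPRS, which carries a domain of each class, counted in neither. Across the 20 cytosolic genes, 11 had a positive ratio in all 3 experiments and 5 a negative one, beside 25.9% and 29.6% of all tested genes. The FPKM groups did not overlap, with palmitate higher, in 8 of the 20, beside 15.1% of all tested genes.

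MARS2, the enzyme that charges methionine in mitochondria (chr2:198570093-198573119, plus strand, GRCh37), stood at 4.13, 2.14 and 3.73 FPKM with palmitate, against 9.64, 10.7 and 9.08 FPKM untreated. Every palmitate library was below every untreated one. The log2 ratio was -1.35 ± 0.25 (SE; adjusted p = 0.0334), and MARS and MARS2 were the 1 pair with the same amino acid called in opposite directions. The 250 bases before the MARS2 start are shown as the counterpart of the MARS window above. They hold no C/EBP-ATF letters. The capitals mark a CACGTG E-box (in 7.43% of all promoters) and GCGC followed by GCGC after 2 free bases, letters read by the mitochondrial gene regulator NRF1 (in 8.78%). They lie at chr2:197705119-197705368 (plus strand, GRCh38.p14).
MARS2 promoter: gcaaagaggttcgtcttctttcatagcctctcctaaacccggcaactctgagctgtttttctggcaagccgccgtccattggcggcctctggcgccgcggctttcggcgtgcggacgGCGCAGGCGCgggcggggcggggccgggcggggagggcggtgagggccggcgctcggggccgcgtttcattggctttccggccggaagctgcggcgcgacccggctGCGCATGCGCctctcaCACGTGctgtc
The E-box letters occurred in 1 of 16 cytosolic and 3 of 14 mitochondrial promoters with an entry, and the NRF1 letters in 3 of 16 and 3 of 14.

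The other mitochondrial genes were not called. Of the 16, MARS2 included, 14 had a negative mean log2 ratio, beside 5972 of the 11075 tested genes. EARS2, the glutamyl enzyme, stood at 6.65, 6.60 and 6.18 FPKM with palmitate, against 13.4, 14.9 and 10.2 FPKM untreated. The groups did not overlap, and the log2 ratio of -0.87 ± 0.20 (SE) lay just outside the threshold (adjusted p = 0.0517). EARS2 passed when ratios were centred on the median of all genes, at an adjusted p of 0.0424, and under 3 of the other alternatives. LARS2, the leucyl enzyme, stood at 12.7, 12.8 and 12.1 FPKM with palmitate, against 22.4, 24.2 and 18.0 FPKM untreated. LARS2 did not overlap between the groups (log2 ratio -0.73, adjusted p = 0.0691).

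CARS2, the cysteinyl enzyme, stood at 4.28, 9.17 and 6.26 FPKM with palmitate, against 9.68, 18.4 and 8.50 FPKM untreated. Each palmitate library was the lower of its experiment, while the groups overlapped (log2 ratio -0.78, adjusted p = 0.0760). SARS2, the seryl enzyme, stood at 5.87, 12.5 and 9.11 FPKM with palmitate, against 17.8, 20.5 and 9.09 FPKM untreated, so that experiment 3 showed no difference (log2 ratio -0.70, adjusted p = 0.181). IARS2, the isoleucyl enzyme, stood at 62.3, 44.0 and 52.0 FPKM with palmitate, against 74.6, 77.7 and 86.4 FPKM untreated, with no overlap (log2 ratio -0.60, adjusted p = 0.113). The remaining negative ratios ran from -0.50 for NARS2 through YARS2, AARS2, TARS2, FARS2, VARS2 and PARS2 to -0.03 for RARS2. VARS2 is listed on a haplotype contig like VARS, so its value is uncertain too. In 9 of the 16 genes the ratio was negative in all 3 experiments and in 1, HARS2, positive in all 3. The shares of all tested genes were 29.6% and 25.9%. The FPKM groups did not overlap, with palmitate lower, in 5 of the 16, MARS2, EARS2, LARS2, IARS2 and YARS2, beside 14.6% of all tested genes.

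Both mitochondrial genes with a positive mean ratio were partners in the pairs followed across compartments. HARS, the cytosolic histidyl enzyme, stood at 30.1, 45.3 and 29.4 FPKM with palmitate, against 45.6, 59.3 and 32.1 FPKM untreated, a log2 ratio of -0.36 (adjusted p = 0.264). HARS2, its mitochondrial partner, stood at 16.3, 22.4 and 15.9 FPKM with palmitate, against 14.3, 17.4 and 15.3 FPKM untreated, a log2 ratio of 0.19 (adjusted p = 0.539). The 2 genes lie head to head on opposite strands and share 108 exon bases, so reads there cannot be told apart without strand. Neither was called, and the groups of each overlapped. WARS2 stood at 10.2, 12.1 and 8.03 FPKM with palmitate, against 8.37, 11.3 and 8.43 FPKM untreated. WARS2, at a log2 ratio of 0.09 (adjusted p = 0.772), overlapped between the groups where WARS did not.

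TARSL2, a threonyl-tRNA synthetase gene closely related to TARS, stood at 3.91, 2.88 and 3.95 FPKM with palmitate, against 4.83, 5.82 and 6.12 FPKM untreated. The groups did not overlap, and the log2 ratio was -0.53 ± 0.21 (SE; adjusted p = 0.144). TARS stood at 225, 144 and 164 FPKM with palmitate, against 134, 118 and 164 FPKM untreated. The difference for TARS was largest in experiment 1, and in experiment 3 the levels were alike.

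FARSA, the 5 uncalled mitochondrial genes given by library, both histidyl genes, WARS2 and TARSL2 were also read in the 5 libraries of other conditions. FARSA stood at 36.1 FPKM with palmitoleate, 109 with both fatty acids, 105 in GPAT4ko palmitate cells, 55.0 in RNF213kd palmitate cells and 74.0 FPKM in RNF213kd untreated cells. In the same order of libraries EARS2 stood at 9.58, 14.9, 11.3, 8.35 and 11.4 FPKM, and LARS2 at 15.5, 23.3, 28.1, 15.7 and 18.4 FPKM. For these 3 genes all 5 values lay above the wild-type palmitate value of the same experiment. CARS2 stood at 7.58, 13.7, 16.1, 6.39 and 7.20 FPKM, SARS2 at 7.99, 15.5, 19.7, 9.09 and 11.8 FPKM, and IARS2 at 91.9, 72.3, 63.2, 61.1 and 84.0 FPKM. In CARS2 and IARS2 too every value was above wild-type palmitate, and in SARS2 all but that of RNF213kd palmitate cells, which was level with it. FARSA and the 5 mitochondrial genes were chosen by the size of their palmitate change, which used the same wild-type palmitate libraries. Their direction against wild-type palmitate is therefore no independent result. HARS stood at 33.8, 50.4, 49.0, 33.4 and 33.3 FPKM and HARS2 at 15.4, 16.2, 20.3, 15.1 and 14.5 FPKM. WARS2 stood at 10.3, 9.62, 9.45, 8.35 and 7.86 FPKM, and TARSL2 at 5.45, 4.45, 6.28, 3.10 and 4.98 FPKM. HARS was above wild-type palmitate in all 5 libraries and HARS2 below it in all 5, each with 1 library a condition and no test.

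Summed over the compartment, the cytosolic genes came to 2655, 3181 and 2178 FPKM with palmitate, against 1858, 2130 and 1580 FPKM untreated. The mitochondrial genes came to 221, 244 and 211 FPKM with palmitate, against 289, 346 and 283 FPKM untreated. Neither sum overlapped between the groups, in opposite directions. The cytosolic sum holds the 7 called genes, with a median log2 ratio of 1.23. The other 13 cytosolic genes had a median of -0.22, with 5 positive and 8 negative.

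**Figure D3:**
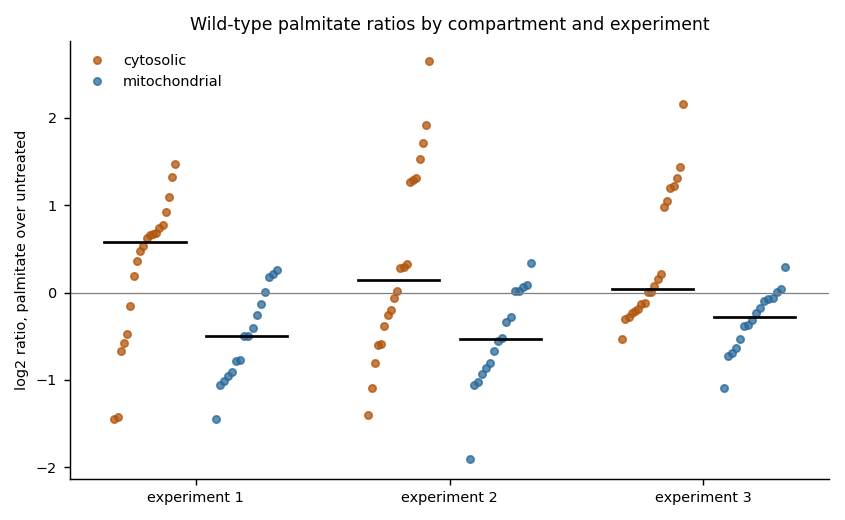
Log2 ratio of palmitate to untreated wild-type cells for each cytosolic (orange) and mitochondrial (blue) gene in each experiment. Black bars are medians, at 0.58, 0.15 and 0.04 for the cytosolic genes and -0.50, -0.54 and -0.28 for the mitochondrial genes in experiments 1, 2 and 3, and the highest orange points keep apart from the rest in experiments 2 and 3.

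The experiments differed in how the ratios followed the base composition of the transcripts. Across 10633 genes with a matched transcript, the Spearman rho between GC content and the log2 ratio of palmitate to untreated was -0.628 in experiment 1, -0.021 in experiment 2 and 0.147 in experiment 3. The points share the libraries, and genes are not independent replicates. The 20 cytosolic transcripts had a median GC content of 48.9% and the 16 mitochondrial ones 49.8%. With the trend removed the cytosolic median was 0.23 and the mitochondrial median -0.33. In experiment 1 VARS (61.7% GC), FARSA (60.3%) and SARS2 (61.4%) had ratios of -1.42, -1.45 and -1.45, and in experiment 3 of -0.19, -0.28 and 0.00. WARS (51.8%) and GARS (38.9%) had a log2 ratio above 1 in every experiment.

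**Figure D4:**
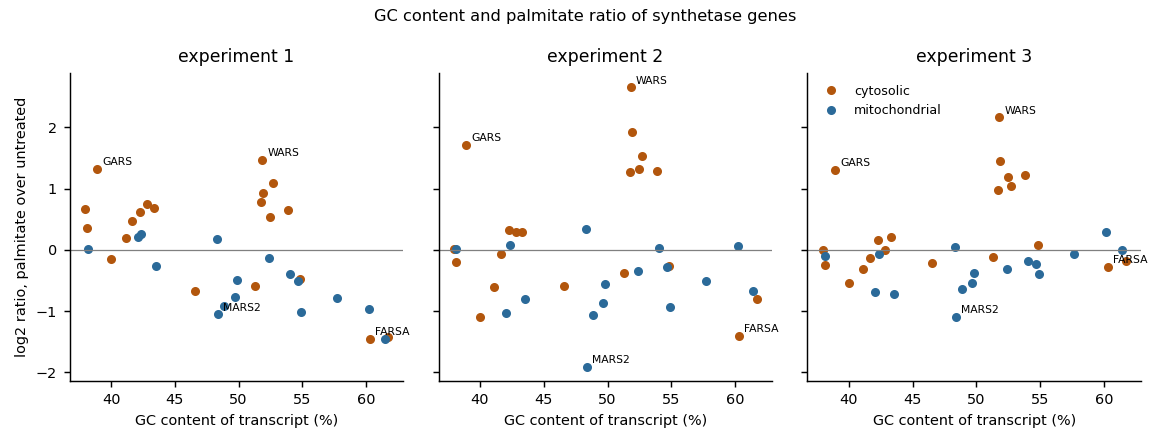
GC content of the transcript (horizontal axis, %) against the log2 ratio of palmitate to untreated wild-type cells in experiments 1, 2 and 3, for cytosolic (orange) and mitochondrial (blue) genes. The genes at the highest GC content have the lowest ratios in experiment 1, such as FARSA at -1.45, while in experiment 3 they lie near 0.

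Genes working beside the synthetases were read as lists. Of 12 genes listed as stress regulators 8 were called higher and 0 lower, beside 6.59% and 3.84% of all tested genes. The 8 include ASNS, an enzyme of asparagine synthesis and not a regulator, at a log2 ratio of 2.55. The largest changes were log2 ratios of 3.44 for NUPR1, a stress-induced chromatin protein, 3.04 for DDIT3 and 2.72 for TRIB3, a pseudokinase induced by DDIT3 and ATF4. ATF4 itself had a log2 ratio of 1.30. The kinase EIF2AK4, which senses uncharged transfer RNA, lay at -0.19 and its partner GCN1L1 at -0.61, neither called. Of the related kinases in that list EIF2AK3 was called higher, at a log2 ratio of 1.84. EIF2AK1 and EIF2AK2 lay at -0.48 and -0.15, neither called. The scaffold genes AIMP1, AIMP2 and EEF1E1 had log2 ratios of -0.09, 0.12 and 0.25. By limma 0 of these 3 were called, and 0 reached an unadjusted p under 0.05, beside 32.6% of all tested genes.

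Of 10 genes of transfer RNA supply and trans-editing, 1 was called higher and 0 lower, beside 6.59% and 3.84% of all tested genes. That gene was XPOT, which exports transfer RNA from the nucleus, at a log2 ratio of 0.87 (adjusted p = 0.0482). The next in size, NSUN2, a transfer RNA methyltransferase, lay at -0.71, and DTD1, which clears D-amino acids from transfer RNA, at 0.69. In mitochondrial elongation 1 of 4 genes was called lower, beside 3.84% of all tested genes. It was TUFM, the factor that brings charged transfer RNA to the mitochondrial ribosome, at -0.93 (adjusted p = 0.0443). Its exchange factor TSFM and the translocase GFM1 both lay at -0.89, outside the threshold. By limma 0 of 6 genes of mitochondrial amidation and initiation were called and 0 reached an unadjusted p under 0.05. Of all tested genes 32.6% reached that unadjusted p. The largest of those log2 ratios were -0.49 for MTFMT, which formylates the methionyl transfer RNA charged by MARS2, -0.42 for GATC, a subunit of the enzyme that amidates the product of EARS2, and 0.39 for the initiation factor MTIF3. For 4 tested cytosolic elongation genes both counts were also 0. EEF2, which moves the ribosome along, lay at 0.21, and the EEF1 subunits EEF1D and EEF1G at -0.14 and 0.11.

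Palmitoleate has the chain length of palmitate and a double bond that palmitate lacks. Its dose was not stated, so the values stand side by side. With 1 library a group, neither this nor any later contrast has a replicate check, and its interval borrows the spread of the wild-type palmitate ratios. With palmitoleate alone 0 of the 37 members were called in either direction, beside 0.0542% of all genes called higher and 0.0271% lower, and 1 member reached an unadjusted p under 0.05, as did 2.42% of all genes. WARS stood at 134 FPKM with palmitoleate, against 98.9 FPKM untreated. GARS stood at 162 FPKM with palmitoleate, against 104 FPKM untreated, and AARS at 64.0 against 70.5 FPKM. The cytosolic median log2 ratio was 0.35 and the mitochondrial median -0.20. In that contrast Spearman's rho with GC content across genes was -0.752, and with the trend removed the medians were 0.20 and 0.01. The 3 members lowered 2-fold or more, VARS (-1.19), SARS2 (-1.06) and VARS2 (-1.02), had transcripts of 61.7%, 61.4% and 60.2% GC, beside 6.60% of all genes lower by as much.

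Set directly against palmitate, the 7 genes chosen as raised by palmitate were all lower with palmitoleate. This contrast shares its palmitate library with the choice of those genes, so their direction here is no independent result. WARS stood at 134 FPKM with palmitoleate, against 275 FPKM with palmitate, giving a log2 ratio of -1.03 (95% interval -2.17 to 0.11). It was the 1 member past 2-fold, beside 4.66% of genes lower and 1.25% higher by as much. SARS stood at 188 FPKM with palmitoleate, against 300 FPKM with palmitate. MARS2 was at 8.24 FPKM with palmitoleate, against 4.13 FPKM with palmitate, and the mitochondrial median was 0.24. The call of MARS2 used that palmitate library too. By limma 0 members were called, with 0 at an unadjusted p under 0.05. Of all genes 5.04% reached that unadjusted p, and 0.0542% were called higher and 0.0271% lower.

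When both fatty acids were given, the 7 genes raised by palmitate lay between their palmitate and untreated levels of experiment 2, libraries that also entered their choice. WARS stood at 195 FPKM with both and 440 FPKM with palmitate, against 69.1 FPKM untreated. CARS stood at 61.1 FPKM with both and 92.9 FPKM with palmitate, against 23.8 FPKM untreated. SARS stood at 180 FPKM with both and 406 FPKM with palmitate, against 140 FPKM untreated. Against untreated cells WARS (log2 ratio 1.48), CARS (1.32) and AARS (1.03) were 2-fold or more higher with both, beside 1.12% of all genes. Against palmitate WARS and SARS, both at -1.17, were 2-fold or more lower, beside 10.2% of all genes. The WARS interval for that contrast was -2.31 to -0.03.

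MARS2 stood at 9.67 FPKM with both fatty acids and 2.14 FPKM with palmitate, against 10.7 FPKM untreated. The log2 ratio of both to palmitate was 1.77 (95% interval 0.70 to 2.83), and of both to untreated -0.14. That palmitate library held the lowest MARS2 level and entered the call of MARS2, so this direction is no independent result. NARS2 and EARS2, at 22.4 and 14.9 FPKM with both fatty acids, against 10.1 and 6.60 FPKM with palmitate, were the other mitochondrial genes 2-fold or more higher than with palmitate, beside 9.22% of all genes. Untreated cells held 21.5 and 14.9 FPKM of the same genes. By limma 0 members were called in either contrast, with 3 at an unadjusted p under 0.05 against untreated and 5 against palmitate, beside 1.23% and 17.8% of all genes. In each contrast 0.0271% of all genes were called higher and 0.0181% lower. The authors' deposited table gives p-values of 0.0288, 0.0333 and 0.0354 to SARS, WARS and MARS2 for both against palmitate, each with a q-value over 0.05.

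In GPAT4ko cells given palmitate the 7 genes raised in wild type had lower levels than in wild-type cells given palmitate, with log2 ratios from -1.11 for SARS to -0.30 for MARS. The wild-type palmitate library of experiment 2, with the highest palmitate level of each of the 7 genes, enters this contrast and the choice of the genes. SARS stood at 188 FPKM in GPAT4ko cells, against 406 FPKM in wild type. WARS stood at 220 FPKM in GPAT4ko cells, against 440 FPKM in wild type, and GARS at 231 against 390 FPKM. Of the other 13 cytosolic genes 12 had a positive ratio, beside 5854 of the 11075 tested genes. The highest was FARSA, at 105 FPKM in GPAT4ko cells, against 54.5 FPKM in wild type. The same wild-type library entered the calls that set these 13 apart, so their direction is no independent result either.

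Of the mitochondrial genes 12 of 16 had a positive log2 ratio of GPAT4ko to wild type (median 0.17), beside 5854 of the 11075 tested genes. LARS2 had the highest (1.08), at 28.1 FPKM in GPAT4ko cells, against 12.8 FPKM in wild type. MARS2 stood at 4.59 FPKM in GPAT4ko cells, against 2.14 FPKM in wild type, and TARSL2 at 6.28 against 2.88 FPKM. The wild-type library also entered the call of MARS2 and the choice of LARS2. By limma 0 members were called and 3 reached an unadjusted p under 0.05 (SARS, LARS2 and TARSL2). Of all genes 12.9% reached that unadjusted p, and 0.0722% were called higher and 0% lower. The authors' deposited table gives SARS a p-value of 0.0356 and a q-value of 0.949.

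**Figure D5:**
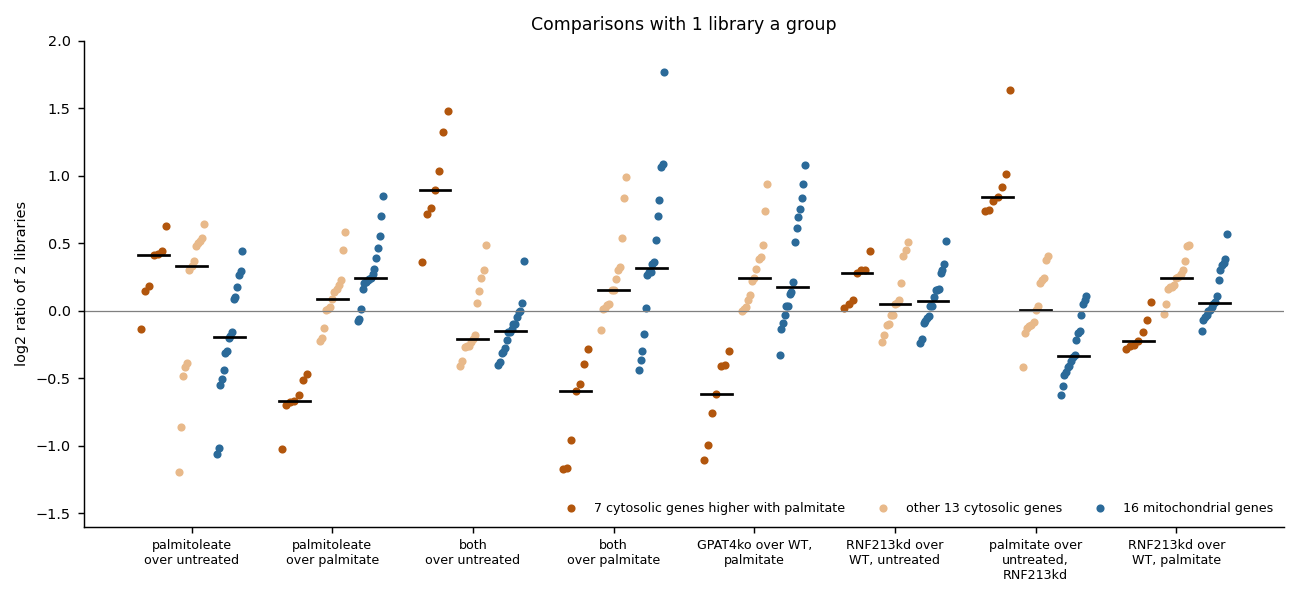
Log2 ratio of 2 libraries (vertical axis) in each contrast with 1 library a group, for the 7 cytosolic genes raised by palmitate (dark orange), the other 13 cytosolic genes (light orange) and the 16 mitochondrial genes (blue), with medians as black bars. All contrasts but that within RNF213kd cells use a wild-type library that entered the choice of the 7 genes. Within RNF213kd cells the 7 lie between 0.74 and 1.63, above the other cytosolic genes.

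RNF213kd cells gave a palmitate contrast in libraries that had no part in choosing the 7 genes. All 7 were higher in RNF213kd palmitate than in RNF213kd untreated cells, with log2 ratios from 0.74 to 1.63, while the other 13 cytosolic genes lay between -0.42 and 0.41. WARS stood at 205 FPKM with palmitate, against 65.3 FPKM untreated (log2 ratio 1.63, 95% interval 0.49 to 2.78). GARS stood at 169 FPKM with palmitate, against 83.3 FPKM untreated (1.01), and these 2 members were past 2-fold, beside 2.74% of all genes. MARS2 stood at 6.01 FPKM with palmitate, against 9.34 FPKM untreated. A negative ratio was found in 13 of 16 mitochondrial genes (median -0.34), beside 5981 of the 11075 tested genes. The lowest ratio there was -0.63 for FARS2, the mitochondrial phenylalanyl enzyme, at 9.94 FPKM with palmitate, against 15.9 FPKM untreated. By limma 0 members were called and 2 reached an unadjusted p under 0.05. Of all genes 2.73% reached that unadjusted p, and 0.0993% were called higher and 0.0903% lower. The authors' deposited table lists 6 of 20 cytosolic and 0 of 16 mitochondrial members with a Cuffdiff p-value under 0.05 for this contrast. The smallest was 1.79e-05 for WARS, and no q-values are given for that experiment. Those tests compare single libraries, and the share of all genes under 0.05 in them was not counted.

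RNF213kd cells were also set against wild-type cells of the same treatment. In untreated cells the cytosolic median log2 ratio of RNF213kd to wild type was 0.06 and the mitochondrial median 0.07, with TARS2 (0.51) and FARSA (0.51) at the top. Across genes the Spearman rho of that contrast with GC content was 0.629, and the transcripts of TARS2 and FARSA hold 54.6% and 60.3% GC. With the trend removed the medians were 0.14 and 0.01. No member was past 2-fold, beside 0.460% of all genes higher and 0.379% lower by as much. With palmitate the medians were 0.17 and 0.06, and MARS2 at 6.01 FPKM in RNF213kd cells, against 3.73 FPKM in wild type, differed most (0.57). That wild-type library entered the call of MARS2. The palmitate response of RNF213kd minus that of wild type was negative for all 7 raised genes, from -0.53 for WARS to -0.23 for YARS, in a contrast whose wild-type libraries entered their choice. The interval for WARS ran from -2.14 to 1.09, so a difference of more than 2-fold either way lay within it. By limma 0 members were called and 0 reached an unadjusted p under 0.05 in these 3 contrasts, beside 0.587%, 0.795% and 0.551% of all genes at that unadjusted p. The shares of all genes called higher and lower were 0.108% and 0.0271% untreated, 0.0722% and 0.0271% with palmitate, and 0.0722% and 0.0903% for the difference of responses.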

How the data were processed

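Members and gene lists were chosen with earlier results of these data known. RNA was pooled from biological triplicates and made into stranded mRNA libraries, per the labels' protocols and design text. Reads were mapped to hg19 with TopHat2 and quantified with Cuffdiff, per the submitters' processing notes, with versions and annotation not given in the sources used here. The authors deposited 1 table of FPKM per experiment, each scaled by itself. They also deposited p-values and q-values of Cuffdiff tests between single libraries, copied here where named but not used for calls.

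The tables listed 23284, 23284 and 23262 genes for experiments 1, 2 and 3. Left out were 26 symbols turned into dates, 2, 2 and 6 genes marked as failed or capped (EEF1A1 among them), and 2, 0 and 15 genes whose repeated listings differed by a relative 0.01 or more. The tables also hold 2 libraries without a label, not used, and the labelled untreated GPAT4ko library has no values under its name. Levels are log2(FPKM + 1), which understates the change of low genes. Ratios were formed within a table and filtered at a mean of 1 FPKM. The 3 wild-type ratios were tested with limma 3.58.1 (R 4.3.3; moderated by an empirical Bayes fit with intensity trend; 2 residual and 3.86 prior degrees of freedom), Benjamini-Hochberg adjusted over 11075 genes at 0.05. p-values measure the spread between experiments. Contrasts of single libraries took their standard error from that fit, assuming that lone libraries vary as those ratios do. A difference of responses was given 2 times that variance. Tests were checked on simulated data with independent noise of the fitted spread. That noise held no GC trend, so the check does not cover such a trend.

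Experiments pair the samples because each table is a separate experiment. Across genes, deviations from the group means correlated at 0.458, 0.634 and 0.696 within an experiment, and at -0.526 to 0.0106 between experiments. Deviations within a group cancel out over the experiments, which by itself pulls the values between experiments downward. The wild-type response carries the experiment as a block because of the design.

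Values in every library are given, in the text or in the plot of the called genes, for the 6 cytosolic and 6 mitochondrial members of largest mean ratio, for members whose call differs from the rest of their compartment, for the histidine, tryptophan and oppositely called pairs, and for TARSL2. EPRS and TARS, and the values of other members in single-library contrasts, were added after their values were seen. Companion lists show their 3 largest changes, with ATF4, ASNS, EIF2AK1, EIF2AK2, EIF2AK3, EIF2AK4 and GCN1L1 added later. GC content came from GRCh37 transcripts matched for 96.0% of tested genes, with a lowess window of 0.3. Other settings tried: adding 0.1 before the log, filtering at 5 FPKM or not at all, median centring, no block, no intensity trend, no small RNA genes, GC trend removed, and each experiment left out.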

Additional observations from a re-analysis of the deposited data

How the results depend on the processing

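Read counts are unknown and the wild-type fit has 2 residual degrees of freedom, so calls of single genes move with how the spread is estimated, while most directions do not. Of the 7 cytosolic genes called higher, 0 were called without a filter on low values (18968 genes tested, 0 of all genes called, 4155 at an unadjusted p under 0.05, smallest adjusted p 0.158), and 0 to 4 with 1 experiment left out. Without the replicate block 2 were called (WARS and SARS), beside 258 genes higher and 51 lower in the whole table. The 0 cytosolic genes called lower became 2 without small RNA genes (FARSA and VARS) and 2 with the GC trend removed (FARSA and FARSB). The 1 mitochondrial gene called lower became 0 without a filter, 2 with centring, 2 without the intensity trend, 4 without small RNA genes, 5 after removal of the GC trend and 0 to 0 with 1 experiment left out. In the whole table, leaving out small RNA genes gave 1233 genes higher and 1206 lower, and removing the GC trend 1622 and 1303. With the GC trend removed the mitochondrial median was -0.33 for palmitate and 0.0093 for palmitoleate against untreated. The cytosolic median for palmitate was 0.08 to 0.41, and the mitochondrial median -0.49 to -0.33, with 1 experiment left out. Genes near 0 changed sign: DARS (0.0029) and RARS2 (0.0021) with centring and VARS2 with the GC trend removed (0.053). With 1 experiment left out, DARS ran from -0.22 to 0.084, NARS from -0.096 to 0.21, RARS2 from -0.045 to 0.012 and VARS2 from -0.45 to 0.18. At a mean of 5 FPKM or more 35 members were tested. For these values the cause was not tested.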
